A study of Homo sapiens with 12 samples.

Results

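The genes described here are the 125 features of the transcriptome of NGI-1-treated MM1S cells whose mean was raised at day 2 and was below its starting level at day 3. They were chosen from 59276 deposited features, of which 11939 reached 1 TPM or more in 3 or more libraries. TPM is a length-corrected share of the sequenced RNA. A feature became a member when its group mean of log2(TPM + 1) was more than 0.4 above day 0 at day 2 and more than 0.4 below day 0 at day 3. The values of day 0, day 2 and day 3 therefore chose the members, and their differences are given below as descriptions only.

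MM1S is an established human multiple myeloma line, a cancer of antibody-secreting plasma cells. NGI-1 is a small-molecule inhibitor of the oligosaccharyltransferase (OST) complex, the enzyme that attaches N-glycans to proteins in the endoplasmic reticulum (ER). Total RNA was sequenced from 3 libraries each of day 0 (H1 to H3), day 2 (H4 to H6), day 3 (H7 to H9) and day 5 (H10 to H12) of NGI-1 at 10 μM. The day 0 libraries also carry NGI-1 as their treatment label, while the study's text treats them as untreated, and they serve as the controls here. No untreated culture of a later day was analysed, so time in culture and NGI-1 cannot be told apart. The labels do not say whether the 3 libraries of a day came from separate cultures, so p-values measure only the spread between them, which may be technical. In bulk RNA of this kind, fewer cells with a transcript and less of it per cell cannot be told apart.

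The ER is where a plasma cell folds and glycosylates its secreted antibody and surface receptors. When unfolded proteins accumulate there, the sensors IRE1, PERK and ATF6 start the unfolded protein response. Its transcription factors XBP1, ATF6 and ATF4 raise the genes for chaperones, for ER-associated degradation and for amino acid supply. XBP1 and ATF6 act in part through the ER stress response element (ERSE), a promoter motif in which CCAAT and CCACG stand 9 bases apart.

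The largest functional list among the members was that of ER targets of XBP1 and ATF6, with 7 of its 27 genes, where 125 of all 11939 tested features were members. Promoter windows of 250 bases before to 50 after the annotated start were matched for 84 members in RefSeq (GRCh38.p14). An ERSE was found on either strand in 3 of the 84 windows (3.57%), against 0.153% of the windows of 9129 tested genes and 0.0769% of 35116 windows in all. The windows of those 3 members, all on the plus strand of the genome, are shown because they carry the only ERSE matches in the 84 windows. Members without a matched window, DERL3 and PDIA3 among them, were not searched. Capitals mark the match, which contains a CCAAT box by construction. Those of CRELD2 and the second of HSP90B1 lie on the opposite strand to the gene and so read CGTGG first.
CRELD2 (chr22:49918384-49918683, match beginning 80 bases before the start): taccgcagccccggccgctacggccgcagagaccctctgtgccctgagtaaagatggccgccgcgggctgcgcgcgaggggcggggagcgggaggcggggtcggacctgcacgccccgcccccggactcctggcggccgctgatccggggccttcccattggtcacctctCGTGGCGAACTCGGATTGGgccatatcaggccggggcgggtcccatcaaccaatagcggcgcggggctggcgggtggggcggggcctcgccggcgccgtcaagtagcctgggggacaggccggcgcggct
FICD (chr12:108515027-108515326, match beginning 154 bases before the start): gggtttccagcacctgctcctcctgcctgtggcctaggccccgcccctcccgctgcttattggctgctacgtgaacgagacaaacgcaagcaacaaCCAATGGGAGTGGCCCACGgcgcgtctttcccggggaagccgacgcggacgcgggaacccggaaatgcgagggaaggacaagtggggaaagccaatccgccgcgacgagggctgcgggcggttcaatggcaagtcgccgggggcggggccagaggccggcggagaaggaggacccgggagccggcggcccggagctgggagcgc
HSP90B1 (chr12:103930160-103930459, matches beginning 194 and 89 bases before the start): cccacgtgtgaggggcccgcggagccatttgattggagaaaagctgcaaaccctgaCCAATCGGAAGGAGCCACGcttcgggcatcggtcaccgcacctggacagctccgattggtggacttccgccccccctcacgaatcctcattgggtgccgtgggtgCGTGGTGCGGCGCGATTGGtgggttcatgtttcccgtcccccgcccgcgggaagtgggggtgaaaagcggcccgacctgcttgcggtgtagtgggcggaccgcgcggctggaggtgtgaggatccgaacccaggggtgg
The CCAAT box alone was in 35.7% of the member windows and 37.8% of the tested ones. The amino acid response element TGATGNAAT was in 0 of the 84 windows, against 0.394% of the tested ones, which says only that these letters are not in these windows. The CACGTG E-box was in 10.7% of the member windows against 10.9%, the CRE TGACGTCA in 3.57% against 3.52%, and the AP-1 site TGANTCA in 3.57% against 3.95%. TATAAA was in 3.57% against 5.08%, and the NF-kB-like and ISRE-like motifs in 3.57% against 2.13% and 1.19% against 2.83%. A match is a description of the letters and not evidence of binding.

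Before the members are described, the libraries need 3 remarks. The plasma cell markers XBP1, TNFRSF17, SDC1, JCHAIN, IRF4, PRDM1 and MZB1 were all well above 1 TPM in every library, and the 11 plasma cell markers summed to between 12150 TPM and 28461 TPM in the 12 libraries. CD27 was under 1 TPM in every library. Markers of B cells, T cells, myeloid, erythroid and stromal cells summed to at most 7.23 TPM per list in any library. Of the 5 epithelial markers, EPCAM and KRT19 were listed at 0 in every library, and most of the summed level came from KRT18, itself a member. Ribosomal protein transcripts took 28.1% to 29.2% of the TPM at day 0, 33.4% to 34.0% at day 2, 40.2% to 44.3% at day 3 and 47.5% to 49.1% at day 5. Over the same days the median log2 difference from day 0 of all tested features was -0.18, -0.73 and -0.99. Their part in the results below was not tested. Because of this shift, counts of calls and the main differences are also given after rescaling, in which a single factor per library brought its median log2 ratio to the average library to 0. Libraries H8 of day 3 and H12 of day 5 stood apart within their groups. The median log2(TPM + 1) of the members was 3.25 in H8, against 2.94 and 3.01 in the other day 3 libraries, and 3.19 in H12, against 2.63 and 2.80 in the other day 5 libraries. H8 held the highest of the day 3 values in 102 of the 125 members (81.6%), against 64.2% of all tested features. For H12 at day 5 this was 112 members (89.6%), against 71.1%. After rescaling these shares were 66.4% against 43.2% for H8 and 72.8% against 43% for H12.

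On the deposited scale the members moved above and then below day 0. After rescaling their median moved above and then returned to about the day 0 level. The median difference of the members from day 0 was 0.49 at day 2, against -0.18 for all tested features, and -0.60 at day 3, against -0.73. The fall at day 3 was smaller in 89 of the 125 members than the median fall of all tested features. After rescaling, the medians of the members were 0.69 at day 2 and 0.12 at day 3, against 0.013 and -0.027. At day 3, 86 members then lay above day 0 and 39 below it, while 48.4% of all tested features lay above it. All 125 members kept a rescaled rise of more than 0.4 at day 2, and 8 of them a rescaled difference under -0.4 at day 3. Chosen again on rescaled values, the rule gave 18 features, and these 8 members were among them. The name "up at day 2, down by day 3" thus holds for the deposited TPM and, for most members, not for the rescaled values. The first is a share of all sequenced RNA, the second a level relative to the median of features averaging 10 TPM or more. Neither scale gives an amount per cell.

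**Figure D1:**
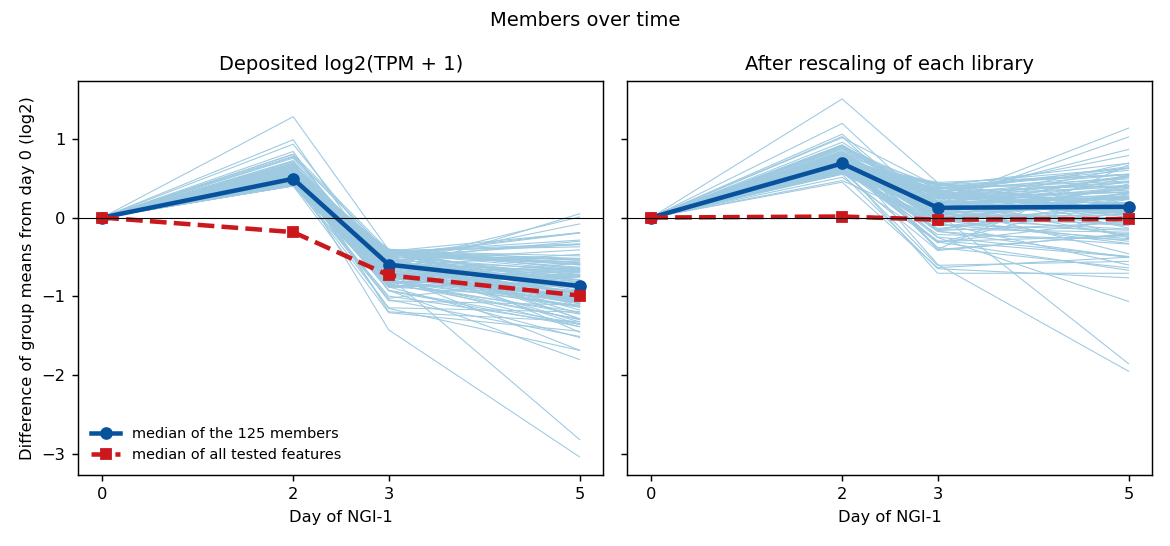
Difference of each group mean from day 0 in log2(TPM + 1), by day of NGI-1, for the 125 members (thin lines), their median (circles) and the median of all 11939 tested features (dashed line, squares). The left panel shows deposited values, where the member median went from 0.49 at day 2 to -0.60 at day 3, and the right panel the rescaled values, where it went from 0.69 to 0.12 and stayed above 0.

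From day 2 to day 3 the direction was the same under both scalings. The median of the members was -1.17 on the deposited scale, against -0.57 for all tested features. After rescaling it was -0.59, against -0.072, and all 125 members lay below their day 2 level. Lower at day 3 than at day 2 were 123 members (98.4%) by limma, beside 55.5% of all tested features, and 73 (58.4%) beside 13.6% after rescaling. These contrasts were fixed by the rule, and no test is read from them. By the call rule used throughout (limma's moderated test, Benjamini-Hochberg adjusted p under 0.05 and a log2 difference over 0.5), 50 members (40%) were called higher at day 2 than day 0, beside 8.03% of all tested features. At day 3, 81 members (64.8%) were called lower than day 0, beside 61.5%. After rescaling these became 110 members (88%) beside 12.9%, and 3 members (2.4%) beside 24.2%, and 0 members were called higher at day 3, beside 7.59% with deposited and 23.9% with rescaled values. The 3 still called lower at day 3 were BGLAP, MYBPC2 and AC015912.3. Both calls, higher at day 2 and lower at day 3, were met by 35 members on the deposited scale and by 2, BGLAP and MYBPC2, after rescaling. The share of all tested features that met both is not given here. Since both contrasts chose the members, nothing is read from these counts. Every day 2 value was above every day 0 value in 104 members (83.2%), beside 16.9%, and every day 3 value below them in 102 (81.6%), beside 70.5%. In rescaled values, day 3 was wholly below day 0 in 10 members (8%) and wholly above it in 40 (32%), beside 37.1% and 34.5%. In 92 members (73.6%) neither the day 2 nor the day 3 values overlapped those of day 0, beside 4.31% of all tested features.

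The differences of the rule were close to its threshold for many members, so leaving out 1 library often changed membership. At the edge of the day 2 threshold, ADCY7 (0.4004), AC007384.1 (0.402) and GLCCI1 (0.403) were just inside and GAS8 (0.399) and RUBCN (0.398) just outside. For the day 3 threshold, PLAAT2 (-0.4005), STX5 (-0.401) and ERLEC1 (-0.403) were just inside and SARAF (-0.395), AC104024.1 (-0.394) and SPN (-0.390) just outside. With each of the 9 libraries of the rule left out in turn, 46 members met it every time and 79 did not. The number chosen ran from 106 without H9 to 164 without H6. Together the members took 0.485% to 0.494% of the TPM at day 0, 0.700% to 0.748% at day 2, 0.285% to 0.363% at day 3 and 0.182% to 0.264% at day 5. At day 0, 72 members averaged at least 10 TPM, 7 at least 100 TPM and 34 under 5 TPM.

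**Figure D2:**
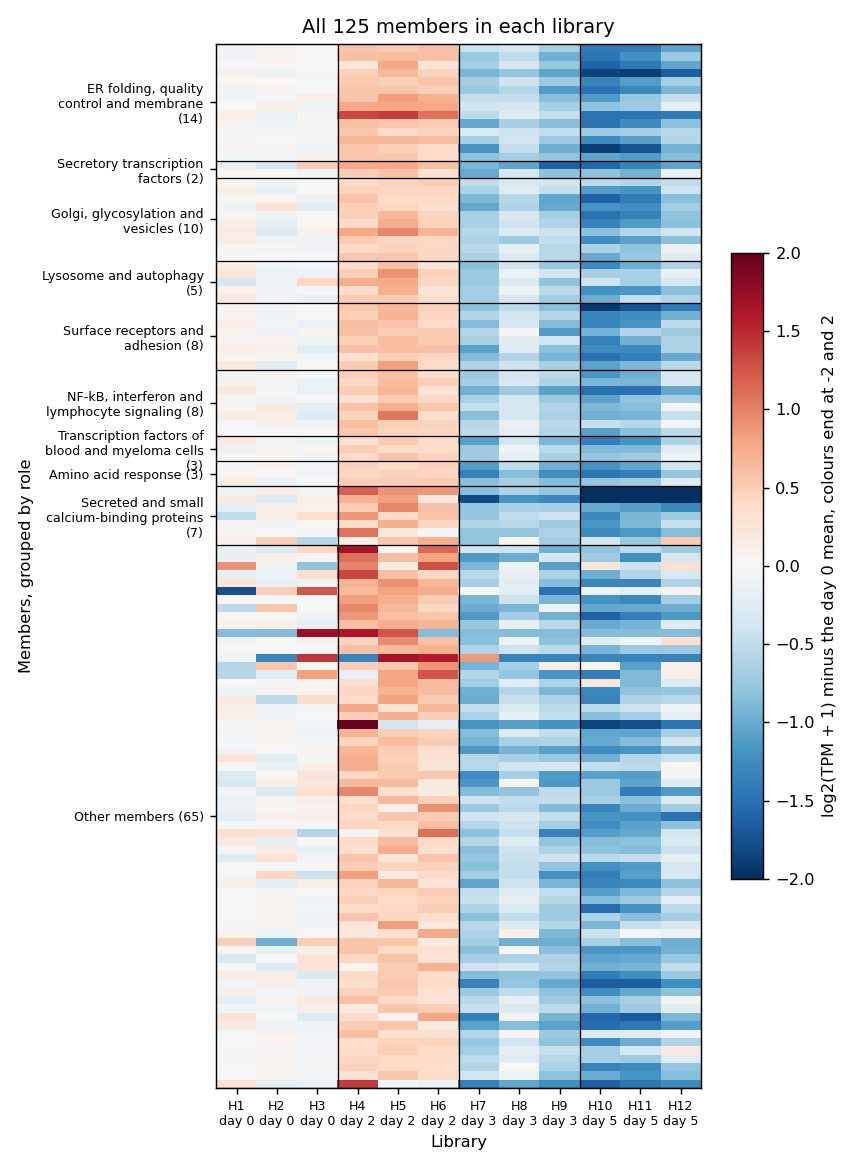
Log2(TPM + 1) of each of the 125 members in each of the 12 libraries minus its day 0 mean, on the deposited scale, in rows grouped by role with the number of members in parentheses. Red is above and blue below day 0, and colours end at -2 and 2. The day 2 columns are mostly red, the day 3 and day 5 columns blue, and single dark cells in the lower rows mark members in which 1 library stood apart.

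The day 5 libraries took no part in the choice of members. They were compared with day 0 and with day 3, whose libraries the rule did use, so these comparisons are only partly independent of it. At day 5, 106 members (84.8%) were called lower than day 0 and 0 higher, beside 69.8% and 7.73% of all tested features. At an unadjusted limma p under 0.05, 111 of the 125 members were lower and 0 higher. The share lower is larger than the 75.9% of all tested features, and 9.85% of those were higher. The median of the members was -0.87, against -0.99 for all tested features. After rescaling the direction of the median flipped to 0.14, against -0.019, with 7 members (5.6%) called lower and 17 (13.6%) higher, beside 26.9% and 27.5%. On the deposited scale the share of members called lower was thus above that of all features, while their median was not lower. The day 5 values were wholly below those of day 0 in 103 members (82.4%), beside 75.2%. After rescaling they were wholly below in 16 members (12.8%) and wholly above in 41 (32.8%), beside 36.7% and 35.4%. Among the 7980 tested features that were more than 0.4 below day 0 at day 3, the same call was made for 96.8%. Of the 1435 features that were more than 0.4 above day 0 at day 2, 13.8% were called lower at day 5 and 37.8% higher.

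Against day 3, 17 members (13.6%) were called lower at day 5 and 1 (0.8%) higher, beside 13.1% and 0.67% of all tested features. The median difference was -0.25, the same as for all tested features to 2 decimals. These shares are near the background. At an unadjusted limma p under 0.05, 40 of the 125 members were lower and 1 higher. Both are smaller shares than the 39.1% and 2.81% of all tested features. Of the 17 calls, 11 held without each library in turn, and 6 held after rescaling, those of S100A4, BGLAP, DERL3, ITGB7, PLAAT2 and FKBP11. The count of lower members was 41 without library H12 and 11 without H8. After rescaling, 6 members (4.8%) were called lower and 2 (1.6%) higher, beside 2.03% and 4.43%, and the median was 0.067 against 0.021.

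**Figure D3:**
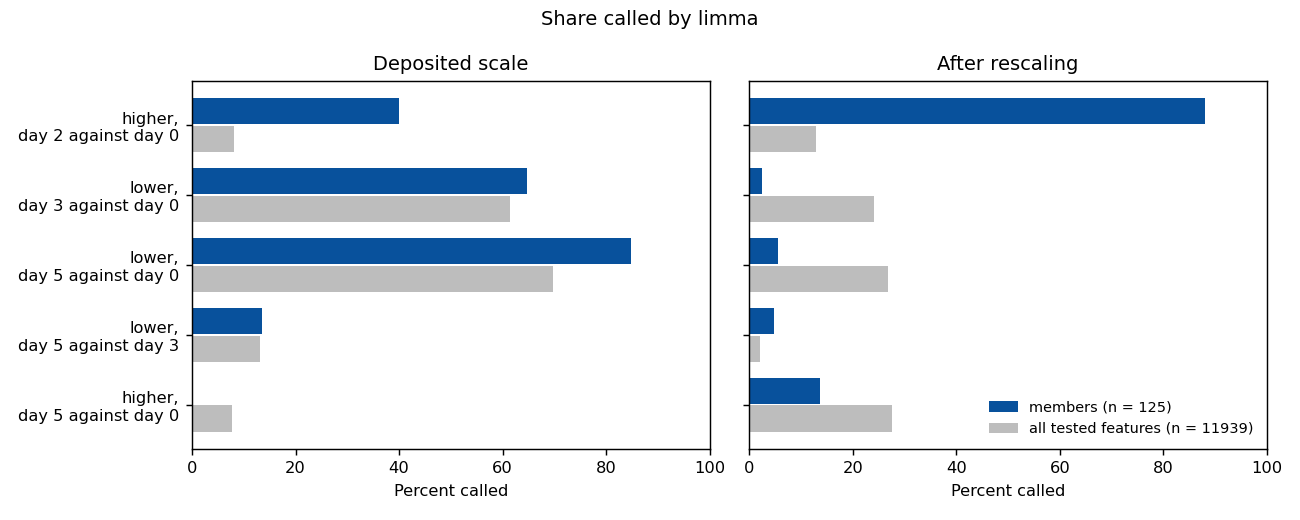
Percent of the 125 members (blue) and of all 11939 tested features (grey) called by limma in 5 comparisons, on the deposited scale (left) and after rescaling (right). The day 2 and day 3 comparisons with day 0 were used to choose the members. On the deposited scale 84.8% of the members were lower at day 5 than at day 0, beside 69.8% of all features, and after rescaling 5.6% beside 26.9%.

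For description, 60 members were placed in 9 groups by their textbook roles, after their values had been seen. The largest group, 14 members, work in protein folding, quality control or the membrane of the ER. Neither the day 2 nor the day 3 values of any of the 14 overlapped day 0, beside 73.6% of all members and 4.31% of all tested features. All 14 were called higher at day 2 after rescaling, beside 88% of all members and 12.9% of all tested features. The rule chose the members on these same contrasts. After rescaling, 10 of the 14 lay above day 0 at day 3, with differences from -0.15 to 0.45. So did 86 of all 125 members and 48.4% of all tested features. At day 5 all 14 were called lower than day 0 with deposited values, beside 84.8% of all members and 69.8% of all tested features. Their median was -1.16, beside -0.87 and -0.99. The rescaled median was -0.036 with 1 called lower and 1 higher. These calls compare with 5.6% and 13.6% of all members and 26.9% and 27.5% of all tested features. Membership of 9 of the 14 did not depend on any single library.

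DERL3, which takes part in the export of misfolded proteins from the ER for degradation, had the largest day 2 difference of all members, 1.28 on the log2 scale. It was at 82.3, 67.7 and 76.6 TPM in the day 0 libraries, 191, 201 and 162 TPM at day 2, 52.1, 63.7 and 54.1 TPM at day 3 and 26.6, 26.4 and 27.5 TPM at day 5. The 3 day 2 values were all more than any other, and the day 5 values were the lowest and the closest together. From day 3 to day 5 DERL3 fell by 1.04 (SE 0.107, limma adjusted p = 4.72e-05), and after rescaling by 0.70. Its day 3 mean was 0.41 below day 0, just past the threshold, and without H1, H3, H7 or H9 it was no longer a member. After rescaling its day 3 level was 0.44 above day 0. On the opposite strand DERL3 (chr22:23834503-23839128, GRCh38) overlaps SMARCB1.

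HSP90B1 encodes GRP94, the ER chaperone of integrins and Toll-like receptors, and was the second most abundant member. It was at 771, 833 and 798 TPM at day 0, 1184, 1147 and 1219 TPM at day 2, 593, 627 and 503 TPM at day 3 and 299, 308 and 385 TPM at day 5. The 4 days did not overlap. It fell by 0.80 from day 3 to day 5 (SE 0.0988, limma adjusted p = 0.000174), and after rescaling the difference was -0.44 and was not called. Without H9 it was no longer below day 0 by more than 0.4 at day 3.

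PDIA3 and PDIA5 are disulfide isomerases, of which PDIA3 (ERp57) folds N-glycoproteins together with calnexin and calreticulin. PDIA3 was at 160, 175 and 169 TPM at day 0, 256, 257 and 253 TPM at day 2, 99.5, 118 and 86.0 TPM at day 3 and 61.1, 71.8 and 99.9 TPM at day 5. Its day 2 values stood well above the rest and its day 3 and day 5 values overlapped. The day 3 to day 5 difference of -0.40 was not called (SE 0.148, limma adjusted p = 0.0596), and it was -0.04 after rescaling. PDIA5 averaged 17.8, 24.4, 11.5 and 6.43 TPM on the 4 days.

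FKBP11, an ER prolyl isomerase abundant in secretory cells, averaged 96.2 TPM at day 0, 139 TPM at day 2, 50.3 TPM at day 3 and 26.9 TPM at day 5. It was the one ER member still called lower at day 5 than day 0 after rescaling, by 0.60 (limma adjusted p = 1.8e-05), and also lower than day 3, by 0.53. On the deposited scale the fall from day 0 was 1.80 (SE 0.102, limma adjusted p = 1.57e-09). ERLEC1, an ER lectin that recognises trimmed N-glycans, went the other way after rescaling. Its deposited means were 54, 75.1, 40.6 and 34.0 TPM on the 4 days, a fall of 0.66 from day 0 to day 5, and after rescaling it was called higher at day 5 by 0.54 (limma adjusted p = 7.77e-05).

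MANF and CRELD2 are small ER proteins that are released from stressed cells. MANF was at 106, 117 and 111 TPM at day 0, 164, 164 and 157 TPM at day 2, 65.9, 74.9 and 50.7 TPM at day 3 and 39.3, 44.9 and 58.8 TPM at day 5. CRELD2, whose window holds an ERSE, was at 13.3, 13.5 and 15 TPM at day 0, 21.1, 25.7 and 23.4 TPM at day 2, 9.80, 9.76 and 7.38 TPM at day 3 and 5.82, 7.82 and 9.73 TPM at day 5. In both genes day 2 was highest without overlap, and days 3 and 5 overlapped. After rescaling, the day 5 difference from day 0 was -0.02 in MANF and 0.33 in CRELD2, and neither was called.

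FICD, the enzyme that adds AMP to the chaperone BiP and removes it, was at 4.95, 5.40 and 4.60 TPM at day 0 and 9.10, 9.25 and 9.16 TPM at day 2. It then was at 3.66, 3.75 and 2.79 TPM at day 3 and 2.44, 2.63 and 4.24 TPM at day 5. The day 2 values were close together and above all others, and the day 3 difference of -0.45 was lost without H9. DNAJC3, a co-chaperone of BiP, averaged 18.5, 26.9, 11.9 and 8.66 TPM on the 4 days. EDEM2, which starts mannose trimming of misfolded glycoproteins, averaged 19.3, 28.7, 10.3 and 8.01 TPM. HM13, the signal peptide peptidase, averaged 259, 405, 172 and 134 TPM. Of the 2 membrane proteins of the rough ER in this group, RRBP1 averaged 65.2, 91.0, 35.7 and 23.1 TPM and CKAP4 3.63, 5.52, 1.72 and 1.30 TPM. All 5 kept their membership without each library, and RRBP1 alone of them was called lower at day 5 than at day 3, by 0.64 (SE 0.210, limma adjusted p = 0.0363), a call lost without H8, H9, H10 or H11 and after rescaling.

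**Figure D4:**
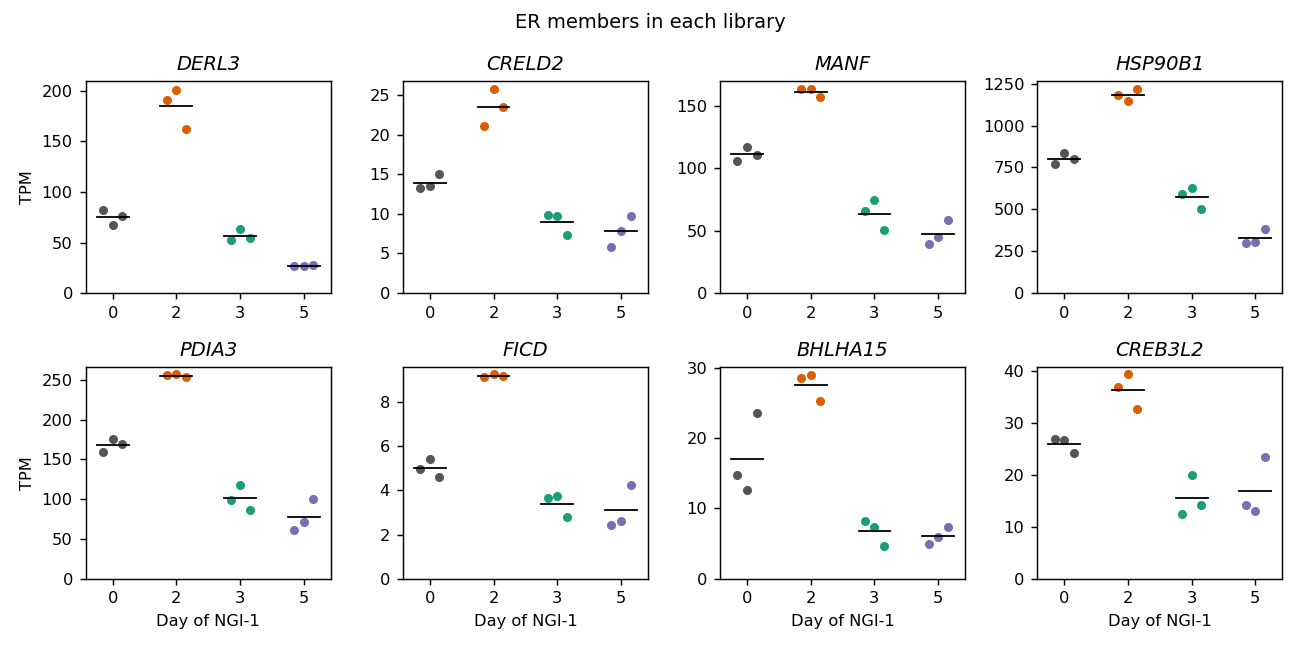
TPM of 8 ER and secretory members in each of the 3 libraries per day (points) with the day's mean (bar), by day of NGI-1. The day 2 points of all 8 genes lie above every other point. After rescaling, which is not drawn, the day 3 level of BHLHA15 stays 0.41 below day 0 and those of the other 7 lie above it.

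The list of ER targets of XBP1 and ATF6 was also counted as a whole, with the 7 members it holds included. Of its 27 genes, 9 were called higher at day 2 than at day 0, beside the 8.03% of all features, and 0 lower. The 9 were the 7 members, which the rule chose for their day 2 rise, with HERPUD1 and DNAJB9. The list's median was 0.30, against -0.18 for all tested features. After rescaling 15 were called higher, the 7 members among them, beside 12.9%, with a median of 0.53. The rule used the values of these 7, so the day 2 counts of the list are in large part fixed by it. At day 3 the deposited values gave 21 of the 27 as lower and 1 as higher, beside 61.5% and 7.59% of all tested features, with a median of -0.85 beside -0.73. After rescaling 4 were called higher and 6 lower, beside 23.9% and 24.2%, with a median of -0.037. The chaperone gene HSPA5, which encodes BiP, was not a member because its day 2 difference was 0.32, with means of 225, 280.3 and 111 TPM on days 0, 2 and 3. HERPUD1 and DNAJB9 were not members because they stayed above day 0 at day 3, by 0.41 and 0.63. None of the 12 OST subunits tested was a member, in a table where 125 of 11939 tested features were.

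The 2 members among the transcription factors of secretory cells were BHLHA15 and CREB3L2. BHLHA15 (MIST1), an XBP1 target that builds the secretory apparatus, was at 14.8, 12.6 and 23.6 TPM at day 0, 28.6, 28.9 and 25.3 TPM at day 2, 8.24, 7.36 and 4.70 TPM at day 3 and 4.89, 5.92 and 7.37 TPM at day 5. H3 lay far above the other day 0 libraries, and day 3 and day 5 overlapped. BHLHA15 was one of the 8 members that met the rule after rescaling, at 0.92 and -0.41. CREB3L2, a membrane-bound factor cleaved in the Golgi, averaged 26.0, 36.4, 15.6 and 16.9 TPM. At day 5 it was called lower than day 0 by 0.64 on the deposited scale and higher by 0.53 after rescaling (limma adjusted p = 0.00821 and 0.00627), and the deposited call was lost without H11. Of the 10 tested genes in the list of unfolded protein response sensors and factors, 3 were called higher at day 2 and 0 lower, beside 8.03% higher among all tested features. These 3 were ERN1, EIF2AK3 and the member BHLHA15. After rescaling 5 were called higher, both members among them, beside 12.9%. The rule chose the members for their day 2 rise. XBP1 was not a member: its mean went from 1547 TPM at day 0 to 1189 TPM at day 2 and 644 TPM at day 3.

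Downstream of the ER, 10 members act in the Golgi, in glycosylation or in vesicle transport. None of them overlapped day 0 at day 2 or day 3, contrasts used by the rule, beside 73.6% of all members and 4.31% of all tested features. After rescaling, 8 of the 10 lay above day 0 at day 3, with differences from -0.11 to 0.42. So did 86 of all 125 members and 48.4% of all tested features. All 10 were called lower at day 5 than at day 0, beside 84.8% of all members and 69.8% of all tested features. Their median of -0.97 was near the -0.99 of all features. After rescaling the median was 0.10, with 3 called higher and 0 lower. These calls compare with 13.6% and 5.6% of all members and 27.5% and 26.9% of all tested features. B4GALT3, a galactosyltransferase of N-glycans and other chains, was the most abundant. It was at 217, 199 and 209.9 TPM at day 0, 291, 331 and 284 TPM at day 2, 133, 168 and 132 TPM at day 3 and 73.8, 81.2 and 119 TPM at day 5. The 4 days did not overlap, and the fall from day 3 to day 5 was 0.68 (SE 0.148, limma adjusted p = 0.00574), or 0.32 and not called after rescaling.

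CHPF, a chondroitin polymerizing factor, had the largest day 2 difference of this group, 0.81. It was at 21.4, 15.8 and 20.3 TPM at day 0, 33.1, 38.3 and 30.9 TPM at day 2, 12.5, 15.6 and 13.9 TPM at day 3 and 10.4, 12.3 and 14.2 TPM at day 5. The highest day 3 value lay just under the lowest day 0 value, and without H1, H3 or H7 CHPF was no longer a member. PGM3, which makes the UDP-GlcNAc precursor of N-glycans, averaged 18.3, 25.4, 11.6 and 8.38 TPM, and the sialyltransferase ST6GALNAC4 47.7, 69.6, 32.4 and 22.0 TPM. STX5 and STX4 are SNARE proteins of Golgi and plasma membrane fusion. STX5 averaged 23.3, 32.1, 17.4 and 15.7 TPM, and after rescaling it was called higher at day 5 than at day 0 by 0.62 (limma adjusted p = 5.33e-05). STX4 averaged 7.37, 10.2, 5.15 and 3.59 TPM. The remaining members of the group were ARFGAP3, GOLGB1, RAB5B and RAB11FIP1.

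The 5 lysosomal and autophagy members were CTSD, TPP1, CLCN7, PLD3 and ATG2A. All 5 lay above day 0 at day 3 after rescaling, by 0.054 to 0.42, as did 86 of all 125 members and 48.4% of all tested features. On the deposited scale all 5 lay below it. The protease gene CTSD was at 88.5, 76.2 and 79.6 TPM at day 0, 105, 122 and 98.1 TPM at day 2, 44.8, 61.1 and 47.6 TPM at day 3 and 33.6, 40.8 and 52.7 TPM at day 5. Its day 2 difference was 0.40, and without H2, H3 or H5 it was below the threshold. TPP1, a lysosomal peptidase, averaged 27.9, 43.5, 20.7 and 19.8 TPM, and CLCN7, a lysosomal chloride transporter, 10.4, 16.4, 6.40 and 7.13 TPM. Neither was called lower at day 5 than at day 0, and both were called higher after rescaling, by 0.69 and 0.63. PLD3 was called lower at day 5 than at day 3, by 0.64 (SE 0.156, limma adjusted p = 0.0102), a call lost without H8 and after rescaling. ATG2A, a lipid transfer protein of autophagosome growth, averaged 3.61, 5.31, 2.10 and 1.87 TPM.

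Among 8 members that are surface receptors or adhesion proteins, ITGB7 was the most abundant of all 125. ITGB7 encodes the β7 integrin subunit, which pairs with α4 for homing to gut and marrow. It was at 986, 952 and 983 TPM at day 0, 1424, 1529 and 1349.7 TPM at day 2, 549.7, 681 and 545 TPM at day 3 and 259, 292 and 366 TPM at day 5. Each day was separate from the others. ITGB7 fell by 0.96 from day 3 to day 5 (SE 0.115, limma adjusted p = 0.000148), and by 0.60 after rescaling, where it was also called. At day 5 it was 1.68 below day 0 on the deposited scale and 0.46 below it after rescaling, the latter short of the 0.5 required for a call. LILRB4, an inhibitory receptor of myeloid and plasma cells, was at 123, 111 and 117 TPM at day 0, 164, 189 and 158 TPM at day 2, 77.8, 89.1 and 78.3 TPM at day 3 and 46.5, 48.9 and 59.3 TPM at day 5. It too was separate on each day and fell by 0.66 from day 3 to day 5 (SE 0.105, limma adjusted p = 0.000876), or by 0.31 and not called after rescaling.

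All 8 receptor members were called lower at day 5 than at day 0 on the deposited scale, beside 84.8% of all members and 69.8% of all tested features. After rescaling 0 were called lower and 0 higher, at a median of 0.105. These calls compare with 5.6% and 13.6% of all members and 26.9% and 27.5% of all tested features. At day 3 all 8 lay above day 0 after rescaling, by 0.050 to 0.35, as did 86 of all 125 members and 48.4% of all tested features. NOTCH2, a receptor for Delta and Jagged ligands, was at 8.06, 6.88 and 7.94 TPM at day 0, 12, 11.2 and 11.4 TPM at day 2, 4.78, 7.72 and 2.91 TPM at day 3 and 3.48, 4.75 and 4.27 TPM at day 5. H8 reached the day 0 range, and NOTCH2 was no longer a member without H9. ACVR1, a receptor for BMP and activin ligands, averaged 10.5, 15.7, 7.56 and 4.94 TPM and was called lower at day 5 than at day 3, by 0.55 (SE 0.166, limma adjusted p = 0.0261), a call lost without H8, H9, H10 or H11 and after rescaling. ADGRE5 (CD97), the tyrosine phosphatase PTPRG, LRP10 and TENM3 made up the rest.

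A set of 8 members belong to NF-kB, interferon and lymphocyte signaling. TNFAIP3 (A20), a feedback inhibitor of NF-kB, was at 11, 12.2 and 11.7 TPM at day 0, 16.9, 17.9 and 15.2 TPM at day 2, 6.66, 8.74 and 7.69 TPM at day 3 and 4.65, 5.48 and 9.0 TPM at day 5. ZFP36, which promotes decay of cytokine mRNAs, averaged 29, 41.6, 19.9 and 17.6 TPM, and the transcription factor IRF1 26.2, 35.2, 17.4 and 14.2 TPM. Rescaled, the 3 genes were 0.23 to 0.30 above day 0 at day 3. FYN, a kinase of the SRC family, averaged 16.2, 25.3, 11.4 and 10.9 TPM and was called higher at day 5 than at day 0 after rescaling, by 0.55. RGS16, a brake on G protein signaling, averaged 84.2, 118, 61.9 and 48 TPM. In the list of 34 tested interferon response genes, IRF1 was the one member, since 28 of the list were still called higher at day 3, beside 7.59% of all tested features, and 32 after rescaling, beside 23.9%. In the NF-kB list, where TNFAIP3 was the one member, 6 of 17 were called higher and 1 lower at day 2, beside 8.03% higher among all tested features. After rescaling 10 were called higher, TNFAIP3 among them, and 1 lower, beside 12.9% higher.

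MYC, RUNX1 and RUNX2 were the members among transcription factors of blood and myeloma cells. MYC was at 97.2, 83.1 and 79.8 TPM at day 0, 109, 125 and 112 TPM at day 2, 39.8, 65.9 and 45.4 TPM at day 3 and 32.6, 37.2 and 55.9 TPM at day 5. H8 and H12 lay above the other libraries of their days, and without H2, H3 or H5 MYC was below the day 2 threshold. On the deposited scale it was called lower at day 5 than at day 0, by 1.06 (SE 0.192, limma adjusted p = 0.00014), and after rescaling the difference was 0.14 and not called. RUNX1 averaged 21.6, 29.2, 15.8 and 13.6 TPM and RUNX2 25.5, 36.0, 17.9 and 17.9 TPM. After rescaling RUNX2 was called higher at day 5 than at day 0, by 0.65.

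The amino acid response was represented by ALDH1L2, SLC1A4 and ADM2. Their day 3 differences ran from -1.14 to -0.79. All 3 lay below day 0 at day 3 under both scalings, with rescaled differences from -0.31 to -0.025. After rescaling, 86 of all 125 members and 48.4% of all tested features lay above day 0 at day 3. SLC1A4, a transporter of alanine, serine and cysteine, was at 34.4, 33.3 and 31.6 TPM at day 0, 44.5, 45.9 and 44.9 TPM at day 2, 12.4, 17.8 and 13.5 TPM at day 3 and 11.5, 12.2 and 18.8 TPM at day 5. ALDH1L2, a mitochondrial enzyme of folate metabolism, averaged 34.5, 47.2, 18.9 and 19.1 TPM. ADM2, a peptide hormone gene induced by ATF4, averaged 5.83, 8.64, 2.95 and 3.63 TPM and was called higher at day 5 than at day 3 after rescaling, by 0.52. Of the 25 tested genes in the list of ATF4 and CHOP targets, 8 were called higher and 0 lower at day 2, beside 8.03% higher among all tested features, and 12 higher after rescaling, beside 12.9%. The member ADM2 was among the 8, and ADM2 and ALDH1L2 were among the 12. The rule chose both for their day 2 rise. At day 3 deposited values gave 2 as higher and 12 as lower, beside 7.59% and 61.5%. Rescaled values gave 9 as higher and 1 as lower, beside 23.9% and 24.2%.

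The largest day 5 differences were in 2 of the 7 secreted or small calcium-binding proteins. S100A4, a calcium-binding protein linked to motility, was at 17.3, 20.4 and 17.7 TPM at day 0, 43.2, 35.0 and 34.8 TPM at day 2, 9.74, 11.7 and 10.3 TPM at day 3 and 0.854, 1.82 and 3.01 TPM at day 5. BGLAP (osteocalcin), a bone matrix protein, was at 40.7, 30.1 and 39.1 TPM at day 0, 59.4, 65.2 and 41.6 TPM at day 2, 9.71, 15.5 and 14.2 TPM at day 3 and 2.71, 4.72 and 3.45 TPM at day 5. The 4 days did not overlap in either gene. From day 3 to day 5 S100A4 fell by 2.07 (SE 0.212, limma adjusted p = 4.72e-05) and BGLAP by 1.61 (SE 0.210, limma adjusted p = 0.000254). Both were called lower after rescaling too, by 1.91 and 1.35 against day 3 and by 1.85 and 1.95 against day 0. BGLAP is also a member that met the rule after rescaling.

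Both genes share sequence with a neighbour. S100A4 (chr1:153543613-153550136) overlaps S100A3 on the same strand, and BGLAP (chr1:156241962-156243321) lies within the readthrough gene PMF1-BGLAP, so how reads were divided between them is uncertain. ANG and RNASE4, ribonucleases that share a locus, averaged 2.23, 4.24, 0.987 and 0.475 TPM and 2.51, 4.26, 1.31 and 0.759 TPM. ANG was called lower at day 5 than at day 0 after rescaling, by 0.51, and RNASE4 was not. CST3, the secreted protease inhibitor cystatin C, averaged 13.0, 18.8, 8.08 and 6.97 TPM. NELL2 was at 9.19 TPM in H4 and at 4.55 and 3.69 TPM in the other day 2 libraries, and was no longer a member without H4. GDNF was at 0.56 TPM to 3.54 TPM in the 12 libraries, with overlap in the rise and the fall.

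Of the 65 members without a role group, SRGAP2 was the one member called higher at day 5 than at day 3. SRGAP2, a regulator of RAC and of membrane shape, was at 10.8, 11.4 and 12.3 TPM at day 0, 16.2, 23.1 and 17.8 TPM at day 2, 6.04, 10.7 and 6.08 TPM at day 3 and 9.63, 10.8 and 14.9 TPM at day 5. Day 5 overlapped day 3 through H8 and also overlapped day 0. The difference between days 3 and 5 was 0.59 (SE 0.204, limma adjusted p = 0.0460), and 0.94 and called after rescaling. With 1 library left out in turn, it was called only without H5, H8 or H10, with differences from 0.42 to 0.83 over the 12 fits. Against day 0 it was 0.01 at day 5 on the deposited scale and 1.13 after rescaling. SRGAP2 has near-identical human paralogs, so its reads may be shared with them.

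PLAAT2, an enzyme of phospholipid metabolism, was at 22.2, 27.5 and 27.7 TPM at day 0, 33.7, 37.6 and 37.4 TPM at day 2, 19.1, 20.5 and 18.1 TPM at day 3 and 10.9, 10.5 and 8.56 TPM at day 5. It fell by 0.89 from day 3 to day 5 (SE 0.117, limma adjusted p = 0.000276), and by 0.56 after rescaling. It was a borderline member, lost without any one of H1, H2, H3, H7 and H9. Among members with a group mean of at least 5 TPM, the other large day 2 differences were those of ACP6 (0.84), ICA1 (0.78), MINDY1 (0.75), TMEM160 (0.72) and the clone-named feature FP671120.6 (0.93). ACP6, a lysophosphatidic acid phosphatase, was at 8.71, 10.6 and 10.1 TPM at day 0, 22.2, 15.3 and 17.8 TPM at day 2, 3.91, 4.42 and 7.54 TPM at day 3 and 5.61, 3.59 and 7.53 TPM at day 5. MINDY1, a deubiquitinase, averaged 14.5, 25.1, 9.41 and 6.51 TPM. ACP6 and MINDY1 kept their membership without each library.

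In several members a single library carried the pattern. EFL1, a GTPase of ribosome maturation, was at 12.4, 13.4 and 12.5 TPM at day 0, 64.8, 9.57 and 11 TPM at day 2, 5.08, 5.52 and 5.00 TPM at day 3 and 2.86, 3.09 and 3.99 TPM at day 5. H5 and H6 lay below every day 0 library, so the day 2 rise of EFL1 was that of H4 alone. ADCY7, an adenylate cyclase, was at 10.2 TPM in H4, 3.11 and 2.87 TPM in H5 and H6, and 4.25, 2.78 and 2.89 TPM at day 0, and it was lost as a member without H4, H2 or H3. TMEM160 was at 2.76 TPM in H1 and 17.0 and 29.5 TPM in H2 and H3, while its day 2 values of 18.8, 21.3 and 20.05 TPM lay within that range. FP671120.6 was at 12.4, 3.27 and 8.51 TPM at day 2, overlapping day 0 at 2.86, 2.54 and 4.76 TPM. The feature AC006001.4 was listed at 0 in all but 3 libraries, H3, H4 and H5, at 5.03, 4.57 and 3.33 TPM. It was one of 4 members at 0 in at least 1 library.

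**Figure D5:**
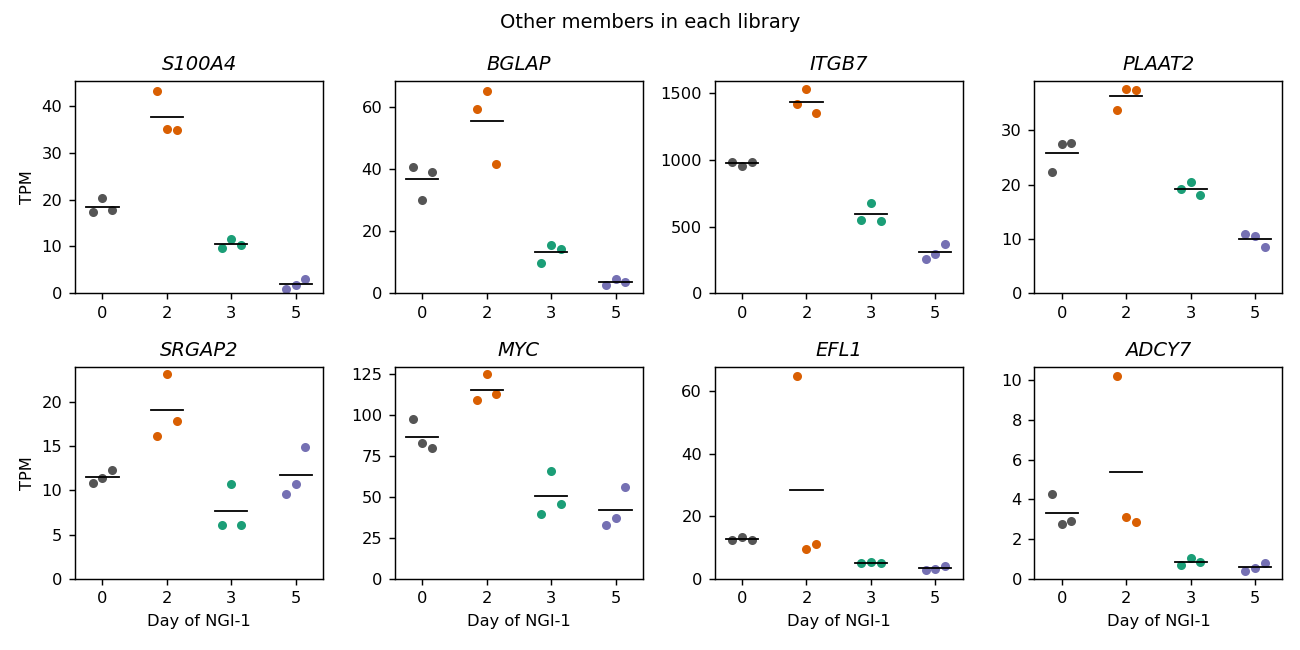
TPM of 8 other members in each of the 3 libraries per day (points) with the day's mean (bar), by day of NGI-1. S100A4 and BGLAP end lowest relative to day 0, SRGAP2 is back at its day 0 level at day 5, and EFL1 and ADCY7 have 1 high day 2 library at 64.8 and 10.2 TPM. After rescaling, which is not drawn, SRGAP2 and MYC lie above day 0 at day 5, by 1.13 and 0.14.

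KIAA0513, SLC1A4, MARF1, BHLHA15, EFL1, ADCY7, ACP6, S100A4, DERL3 and BGLAP had the largest drops from day 2 to day 3 among members with a group mean of at least 5 TPM. KIAA0513 averaged 5.54, 9.47, 2.46 and 1.53 TPM on the 4 days. MARF1, an RNA-binding protein, averaged 6.82, 9.90, 2.86 and 3.92 TPM, and was lost as a member without H1. Both lay below day 0 at day 3 after rescaling too, by 0.25 and 0.32.

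What the members shared beyond the rule was limited. In GENCODE release 29, 123 of the 125 were matched, and 110 (88%) were protein coding, against 89.0% of all tested features. There were 7 pseudogenes (5.6% against 3.60%) and 6 long noncoding or other noncoding genes (4.8% against 6.71%). Median transcript length was 3730 bases against 3434, and median GC content 51.5% against 47.8%. The members lay on 22 chromosomes. A coding gene overlapped 20 members on the same strand and 36 on the opposite strand, and whether the quantification used strand is not given in the sources used here. These overlaps were not counted for the other tested features. Of the 125 members, 22 were in at least 1 of 27 functional lists. The share of all tested features in these lists is not given here.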

How the data were processed

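The authors deposited log2(TPM + 1) for 59276 features in 12 RNA-seq libraries of MM1S cells. The submitters' processing notes name FastQC, Trimmomatic, STAR and Salmon, without versions, and hg38, while the annotation and the strand setting are not given in the sources used here. TPM keeps no read count, so counting error is unknown and precision is read from 3 libraries per group. The log2 was undone for values given in TPM.

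Features that reached 1 TPM in 3 or more libraries, 11939 in number, entered one fit of the 4 groups in limma 3.58.1 (R 4.3.3) with a mean-variance trend. Two-sided p-values received Benjamini-Hochberg adjustment over these features for each contrast separately. A call required an adjusted p below 0.05 together with a log2 difference above 0.5 in size. The fit was also run on simulated data with independent noise, in which a small part of the features changed, equally many up and down. That setting lacked the shift of most features seen here, so it does not tell how the calls behave under such a shift. For rescaling, TPM values were divided by a factor per library, chosen so that the median difference of log2(TPM + 1) from the average library became 0 over the 5433 features averaging 10 TPM or more. Differences are on the log2(TPM + 1) scale, which understates changes of low genes.

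The members, gene lists and tests were chosen with earlier results of these data known, and the lists were written from general knowledge. Members were named when they were in a functional list, had one of the 10 largest differences of day 2 from day 0 or from day 3 (highest group mean of at least 5 TPM), were among the 5 called highest or lowest at day 5 against day 3, or lay at a threshold. Other members were named by role after their values were seen. Biotypes, lengths and gene coordinates came from GENCODE release 29 and promoter windows from RefSeq GRCh38.p14, matched by symbol. Alternatives were rescaling, other filters, a pseudocount of 0.1, other thresholds, removal of the 20 top features by mean TPM, fits of 2 groups at a time, no trend, and each library left out. Figures were drawn with matplotlib 3.10.9. The other measurements of the study were not analysed here. Not every single-gene value is reported here.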

Additional observations from a re-analysis of the deposited data

Results flagged for a closer look

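These results are singled out because the members, chosen for a low day 3 mean, differed between day 3 and day 5 by limma's test of that difference. At day 5, 17 members were called lower than at day 3 and 1 higher, shares near those of all tested features. The 5 largest falls on the log2 scale were those of S100A4 (-2.07), BGLAP (-1.61), DERL3 (-1.04), ITGB7 (-0.96) and PLAAT2 (-0.89). All 5 were called without each library in turn and after rescaling. SRGAP2 was the 1 member called higher, at 0.59, and its call was lost without 9 of the 12 libraries in turn.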

How the results depend on the processing

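The number of members depended most on scaling and threshold: 125 became 18 after rescaling, 229 with a pseudocount of 0.1, 316 at a threshold of 0.3 and 13 at 0.6, and ran from 106 to 164 with 1 library left out. Members lower at day 5 than at day 0 numbered 106, 7 after rescaling and 50 at a log2 difference over 1, and 91 to 112 with 1 library left out. Their median difference reversed from -0.87 to 0.14 after rescaling and ran from -1.05 to -0.78 with 1 library left out. Members lower at day 5 than at day 3 numbered 17, 6 after rescaling and 3 at a difference over 1, and 11 (without H8) to 41 (without H12) with 1 library left out. Members higher numbered 1, 2 after rescaling, and 0 with no filter, pairwise fits, no trend or a difference over 1, and 0 to 1 with 1 library left out. Among single members, the day 5 minus day 0 differences of CREB3L2, ERLEC1 and MYC reversed after rescaling, to 0.53, 0.54 and 0.14. Over the differences of single members recomputed, 427 values kept their direction and call, 64 kept the direction and lost the call, and 3 reversed. Many of these settings could change a call but not the difference itself. They are other filters, no trend, fits of 2 groups, and leaving out a library of a day not compared. The tally is therefore no measure of how stable the directions are. Beyond the scaling itself and the stricter thresholds, the cause of these shifts was not tested. No paired analysis was possible because the library names carry no replicate number that the days share. TPM hides depth, so no detection limit can be given for members of low level.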
